A study of Mus musculus with 6 samples.

Results

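The chemokine ligand genes that activated T cells are known to transcribe were followed through GlyT1 inhibition in Th1 cells. They were taken by gene symbol from the deposited count table and comprised 8 of its 54532 genes, namely Ccl1, Ccl3, Ccl4, Ccl5, Ccl9, Ccl20, Cxcl10 and Xcl1. CD4+ T cells from the spleens of male C57BL/6 mice were enriched by magnetic negative selection and activated through CD3 and CD28, with IL-2, IL-12p70 and an antibody against IL-4 to drive the Th1 state. After 72 h, RNA was sequenced from 3 vehicle cultures (Th1, DMSO) and from 3 cultures given 500 nM ALX-5407, a small molecule that blocks GlyT1, the glycine carrier encoded by Slc6a9. The labels call the libraries of a group biological replicates without saying whether each came from its own mouse, so p-values measured the spread between cultures. The series text gives an ALX-5407 exposure of 72 h, whereas the study's RNA sequencing methods give a shorter one. The study's figure legend for this sequencing describes ALX-5407 in the medium and 3 days of Th1 culture. Every culture was made under Th1 conditions, and no unpolarised culture entered this comparison.

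Chemokines are small secreted proteins that steer leukocytes by binding G protein-coupled receptors. They are classed by the spacing of the first cysteines of the mature protein, which are adjacent in CC chemokines, separated by 1 residue in CXC chemokines and reduced to a single one in C chemokines. Activated Th1 cells release CC chemokines that draw other effector T cells and monocytes, and interferon-gamma induces CXCL10, which draws CXCR3-bearing effector T cells.

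The class was read from the coding exons of 7 of the genes. The 30 coding bases around the first cysteine codons of the mature part, from GENCODE M21 transcripts, are shown because they separate the classes, with those cysteine codons in capitals.
Ccl4: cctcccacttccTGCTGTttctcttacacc
Ccl5: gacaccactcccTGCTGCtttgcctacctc
Ccl9: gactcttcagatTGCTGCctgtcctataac
Ccl1: gtctccaatagcTGCTGCttgaacaccttg
Ccl20: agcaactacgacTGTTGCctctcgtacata
Cxcl10: aggacggtccgcTGCaacTGCatccatatc
Xcl1: gaagagagtagcTGTgtgaacttacaaacc
Within these stretches Ccl1, Ccl4, Ccl5, Ccl9 and Ccl20 carried adjacent cysteine codons and Cxcl10 carried 1 codon between its pair. Xcl1 carried a single cysteine codon in its stretch and 2 in all from codon 24 on.

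Of the 8 genes, 7 passed the filter on low counts, 2 of them rose with ALX-5407 (Ccl4 and Ccl20), 2 fell (Ccl9 and Xcl1), and 3 did not pass the test (Ccl3, Ccl5 and Cxcl10). Calls came from the quasi-likelihood test of edgeR, with p adjusted by Benjamini-Hochberg across the 15938 genes tested and a threshold of 0.05. By the same rule 24.5% of all genes tested were higher and 23.2% were lower, so 2 of 7 in either direction was near the background. With an absolute log2 fold change over 1 required as well, Ccl20 was the 1 member among higher genes and Ccl9 and Xcl1 were the 2 among lower genes. Across all genes tested those shares were 3.36% and 6.68%. The median log2 fold change was 0.07 over the 7 members and 0.01 over all genes tested.

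**Figure D1:**
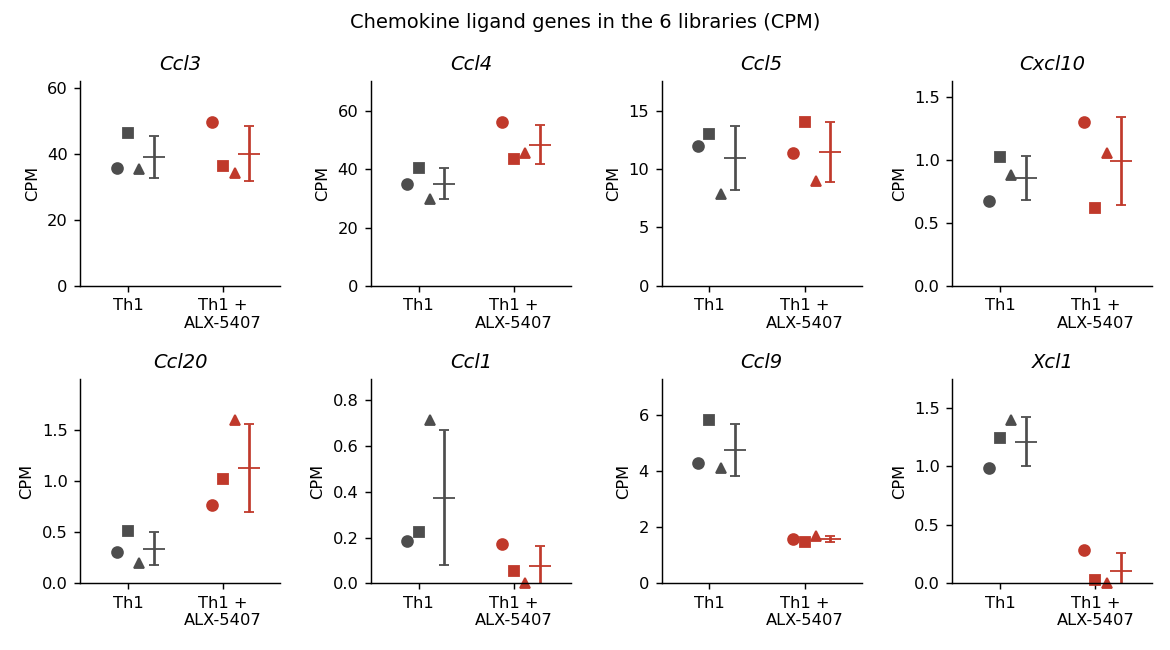
CPM (counts scaled to library size, linear axes from 0) of the 8 chemokine ligand genes in the 3 vehicle Th1 libraries (grey) and the 3 ALX-5407 libraries (red). Circles, squares and triangles are replicates 1, 2 and 3, and the dash with whiskers is the mean ± SD, which stops at the axis where it would pass below 0. The groups are apart for Ccl4, Ccl20, Ccl1, Ccl9 and Xcl1 and overlap for Ccl3, Ccl5 and Cxcl10.

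Levels differed widely among the 8 genes. Expressed per kilobase of the gene length in the file (FPKM), the vehicle Th1 cultures held Ccl4 at 53.1 ± 8.19, Ccl3 at 51.1 ± 8.32 and Ccl5 at 11.4 ± 2.84 (SD, n = 3 cultures). On that FPKM scale Ccl4 exceeded 96.7% and Ccl3 96.6% of the 28464 genes with at least 1 count, so both were among the more abundant transcripts of the culture. Xcl1 followed at 2.31 FPKM and Ccl9 at 1.56, with Cxcl10 at 0.381, Ccl20 at 0.237 and Ccl1 at 0.158. Ranges over the libraries overlapped between Ccl4 and Ccl3, between Xcl1 and Ccl9, and between each neighbouring pair from Cxcl10 to Ccl1. In the ALX-5407 cultures the order by FPKM was Ccl4 (73.5), Ccl3 (52.4), Ccl5 (11.9), Ccl20 (0.793), Ccl9 (0.519), Cxcl10 (0.440), Xcl1 (0.198) and Ccl1 (0.0315). Ccl4 no longer overlapped with Ccl3 there, whereas each gene from Ccl20 down overlapped with the next. By FPKM Xcl1 thus moved from rank 4 in the vehicle cultures to rank 7 in the ALX-5407 cultures, and Ccl20 from rank 7 to rank 4. These ranks depend on gene length, which covers the exons of all annotated transcripts and was 523 bases for Xcl1 and 3045 for Ccl9. In CPM the vehicle cultures held more Ccl9 (4.75) than Xcl1 (1.21).

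Ccl3, Ccl4 and Ccl5 encode inflammatory CC chemokines that draw monocytes and effector T cells, and Ccl3 and Ccl5 signal through CCR1. Ccl4 (chr11:83662584-83664683, GRCm38, plus strand) had 1143, 1268 and 912 counts in the vehicle libraries and 1987, 1622 and 1603 in the ALX-5407 libraries. Each ALX-5407 library lay above each vehicle library, also in CPM. The level rose from 35.1 ± 5.40 to 48.5 ± 6.83 CPM (SD, n = 3 cultures), a 1.38-fold rise and a log2 fold change of 0.47 ± 0.114 (SE; edgeR adjusted p = 0.00293). In bulk RNA, more cells that transcribe a gene and more RNA per cell cannot be told apart, here and for each gene that follows.

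Ccl3 (chr11:83647844-83649355, minus strand), the close relative of Ccl4, had 1160, 1458 and 1087 counts in the vehicle libraries and 1757, 1359 and 1202 in the ALX-5407 libraries. Its groups overlapped, since vehicle replicate 2 lay above ALX-5407 replicates 2 and 3 in CPM. The mean was 39.1 ± 6.37 CPM in vehicle and 40.2 ± 8.38 CPM in ALX-5407 cultures (SD, n = 3). The log2 fold change was 0.04, with a 95% interval from -0.24 to 0.31 (edgeR adjusted p = 0.844), and its sign turned with upper-quartile scaling, with protein-coding genes alone and without vehicle replicate 1, vehicle replicate 3 or ALX-5407 replicate 1.

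Since Ccl3 and Ccl4 lie near each other, their ratio was taken within each library. The Ccl4 to Ccl3 ratio in FPKM was 1.14, 1.01 and 0.974 in the vehicle libraries and 1.31, 1.39 and 1.55 in the ALX-5407 libraries. All 3 ALX-5407 values were above all 3 vehicle values (two-sided exact permutation p = 0.1, the smallest that 3 against 3 allows). Together both genes made up 80.1% ± 0.896 of the counts of the 8 ligands in vehicle and 85.1% ± 2.56 in ALX-5407 cultures (SD, n = 3, exact permutation p = 0.1).

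Ccl5 (chr11:83525778-83530518, minus strand), which is typical of effector T cells, had 390, 407 and 241 counts in vehicle and 401, 523 and 313 in ALX-5407 libraries. Replicate 3 was the lowest library of both groups, and the groups overlapped. The means were 10.9 ± 2.73 and 11.4 ± 2.55 CPM (SD, n = 3), and the log2 fold change of 0.07 had a 95% interval from -0.32 to 0.45 (edgeR adjusted p = 0.796). Its sign turned without vehicle replicate 3 and without ALX-5407 replicate 2.

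Ccl9 (chr11:83572919-83578636, minus strand) encodes a CCR1 ligand best known from macrophages and other myeloid cells. Its counts were 140, 183 and 127 in the vehicle libraries and 56, 55 and 59 in the ALX-5407 libraries. The ALX-5407 libraries were close to each other and all below the vehicle libraries. The level fell from 4.75 ± 0.941 to 1.58 ± 0.104 CPM (SD, n = 3), which was 3.00-fold lower (log2 fold change -1.59 ± 0.213, SE; edgeR adjusted p = 1.44e-05). The ratio of Ccl9 to Ccl5 in CPM was 0.359, 0.450 and 0.527 in vehicle and 0.140, 0.105 and 0.188 in ALX-5407 libraries, without overlap (exact permutation p = 0.1). This ratio restates the fall of Ccl9 against a gene that did not pass the test, and it is not separate evidence. Of the 50-base stretches of Ccl9 transcripts, 1.97% recurred in transcripts of other genes.

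Of 12 macrophage and monocyte markers 2 could be tested, and both fell, as Ccl9 and 23.2% of all genes tested did. The summed level of the 12 markers, nearly all from Cd68, ranged from 16.7 to 22.4 CPM in the vehicle and from 5.92 to 7.02 CPM in the ALX-5407 libraries. Without Cd68 the sum was 1.66 to 1.98 CPM in vehicle and 0.831 to 1.37 CPM in ALX-5407 libraries. Cd68, a lysosomal protein, had a log2 fold change of -1.75 and Mrc1, the mannose receptor, one of -1.32. Some untested markers had higher mean levels with ALX-5407, such as Csf1r, the receptor of a macrophage growth factor, with 1, 3 and 0 counts against 4, 0 and 15. C1qa, C1qb and C1qc, which define tissue macrophages, had no count in any library, and 8 of the 12 markers had at most 10 counts in each library. The part of such cells in the fall of Ccl9 was not tested.

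Xcl1 (chr1:164931644-164935527, minus strand), the C chemokine that draws XCR1-bearing dendritic cells, showed the lowest fold change of the 7 tested genes. The vehicle libraries held 32, 39 and 43 counts and the ALX-5407 libraries 10, 1 and 0. All ALX-5407 libraries were below all vehicle libraries, and the count of 0 allows up to 3 counts, or 0.0856 CPM, in that library. The level fell from 1.21 ± 0.210 to 0.103 ± 0.156 CPM (SD, n = 3), 11.4-fold lower by the fit, with a log2 fold change of -3.51 and a 95% interval from -4.95 to -2.07 (edgeR adjusted p = 0.000458). The size of this change rested on few reads, and without ALX-5407 replicate 1, which held most of the remaining counts, the log2 fold change was -6.10.

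Xcl1 overlaps the opposite-strand gene Gm20743 over 98 bases, or 18.7% of its exon bases, and the strand setting of the counting was not given in the sources used here. NK cells and CD8 T cells also transcribe Xcl1. The summed level of 5 NK markers was 5.59 to 7.14 CPM in vehicle and 6.50 to 6.85 CPM in ALX-5407 libraries. Within that list Klre1, a lectin-like NK receptor, fell (log2 fold change -1.46) and Eomes, a T-box factor that T cells also transcribe, rose (1.05). Without Eomes the other 4 markers, nearly all from Klre1, summed to 3.80 to 4.30 CPM in vehicle libraries. In ALX-5407 libraries they summed to 1.33 to 1.65 CPM, lower as Xcl1 was. Among them Klrb1c, which encodes NK1.1, had 8, 9 and 4 counts against 0, 2 and 3 and was below the filter. Also below it, with overlapping groups, were Ncr1 (0, 4 and 0 counts against 0, 3 and 1) and Klra8 (1, 2 and 0 against 2, 0 and 0). The 2 CD8 markers summed to 9.25 to 9.59 CPM in vehicle and 6.71 to 8.87 CPM in ALX-5407 libraries. Cd8a fell by 0.80 on the log2 scale (edgeR adjusted p = 0.0111). Cd8b1 overlapped between groups and did not pass the test (log2 fold change -0.007, edgeR adjusted p = 0.976). The part of these cells in the Xcl1 values was not tested.

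Ccl20 (chr1:83116766-83119167, plus strand) encodes the CCR6 ligand, which draws Th17 cells, regulatory T cells and B cells. It had 10, 16 and 6 counts in vehicle and 27, 38 and 56 in ALX-5407 libraries. The groups did not overlap, and the ALX-5407 libraries spread more widely than the vehicle libraries. The level rose from 0.337 ± 0.160 to 1.13 ± 0.427 CPM (SD, n = 3), a 3.31-fold rise from a low level (log2 fold change 1.73 ± 0.458, SE; edgeR adjusted p = 0.00526).

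Cxcl10 (chr5:92346638-92348889, minus strand) had 22, 32 and 27 counts in vehicle and 46, 23 and 37 in ALX-5407 libraries. ALX-5407 replicate 2 was the lowest of the 6 in CPM and the other two ALX-5407 libraries were the highest, so the groups overlapped. The means were 0.858 ± 0.173 and 0.991 ± 0.347 CPM (SD, n = 3), with a log2 fold change of 0.21 and a 95% interval from -0.60 to 1.01 (edgeR adjusted p = 0.690). Art3 overlaps Cxcl10 on the opposite strand over 5.91% of its exon bases. The interval was wide at this depth, and without ALX-5407 replicate 1 the value was -0.03. Cxcl9 and Cxcl11, the other CXCR3 ligands, were below the filter, with at most 8 counts in a library.

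Ccl1 (chr11:82176657-82305690, minus strand), the CCR8 ligand, was too low to pass the filter. It had 6, 7 and 22 counts in vehicle and 6, 2 and 0 in ALX-5407 libraries. In CPM the lowest vehicle library, at 0.184, was just above the highest ALX-5407 library, at 0.170, and vehicle replicate 3 alone held 22 counts. With no filter on low counts the log2 fold change was -2.26 (edgeR adjusted p = 0.0382), whereas DESeq2 gave -2.33 with an adjusted p of 0.0756, so the call depended on the tool.

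**Figure D2:**
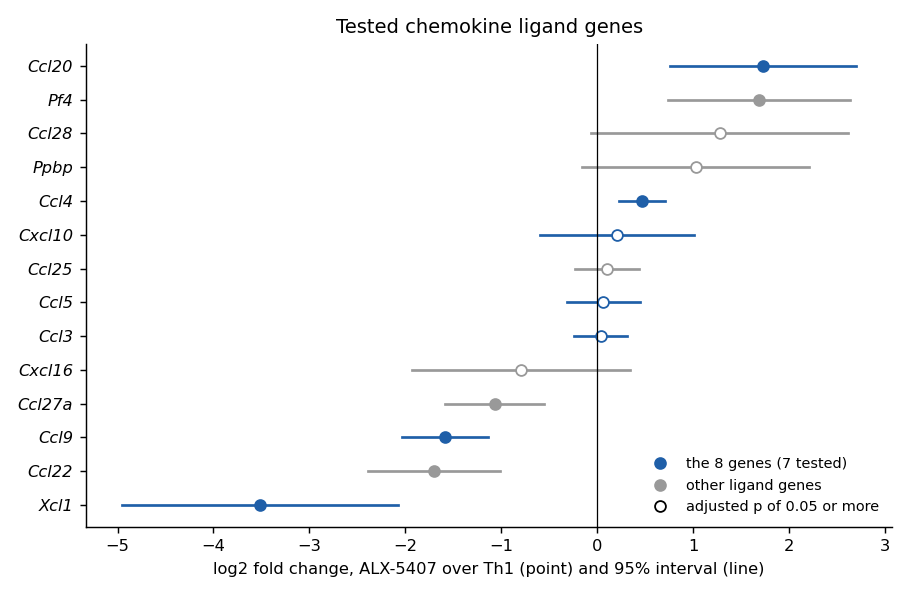
Log2 fold change (ALX-5407 over vehicle Th1, horizontal axis) with its 95% interval for the 14 chemokine ligand genes that passed the filter on low counts. The members are blue, other ligands grey, and open points did not pass the edgeR test. Xcl1 lies farthest to the left at -3.51 and Ccl20 farthest to the right at 1.73.

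Summed over the 8 genes, the level was 92.7 ± 14.7 CPM in vehicle and 104 ± 15.3 CPM in ALX-5407 cultures (SD, n = 3), which did not differ beyond the spread (exact permutation p = 0.4). The 40 chemokine ligand genes listed, members included, together took 0.0107% of the counts of vehicle libraries and 0.0121% of those of ALX-5407 libraries (exact permutation p = 0.3). The members made up 84.5% ± 2.59 of these ligand counts in vehicle and 87.8% ± 1.27 in ALX-5407 cultures. Of the 32 other ligand genes on chromosomes in the file, 13 had no count in any library, 12 had counts but stayed below the filter, and 7 were tested. Ccl22, a CCR4 ligand, fell with counts of 69, 68 and 62 against 28, 14 and 27 (log2 fold change -1.70, edgeR adjusted p = 0.00044), and Ccl27a fell by 1.07 on the log2 scale. Pf4, a platelet chemokine, rose from 6, 21 and 19 counts to 64, 76 and 31 (log2 fold change 1.69, edgeR adjusted p = 0.00547). Ccl25 (log2 fold change 0.10), Ccl28 (1.28), Ppbp (1.03) and Cxcl16 (-0.80) did not pass the test.

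Ccl5, Ccl9, Ccl3 and Ccl4 lie in 1 cluster on chromosome 11, with 132 kb between the start sites of Ccl5 and Ccl4. Along it Ccl5 and Ccl3 did not pass the test, Ccl9, whose start site is 48.1 kb from that of Ccl5, fell, and Ccl4, 13.2 kb from Ccl3, rose. Ccl6, between Ccl9 and Ccl3, was below the filter with 8, 4 and 2 counts in vehicle and 12, 18 and 6 in ALX-5407 libraries. Rpl9-ps1, a ribosomal protein pseudogene beside Ccl3, had at most 2 counts. Next to the cluster, Heatr9 did not pass the test (log2 fold change 0.36) and Taf15, an RNA-binding protein gene, fell by 0.59 on the log2 scale. Ccl1 lies on the same chromosome, with 1220 kb between the end of its annotated span and the Ccl5 gene. That span covers 129 kb, and the RefSeq start site of Ccl1 lies within it.

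**Figure D3:**
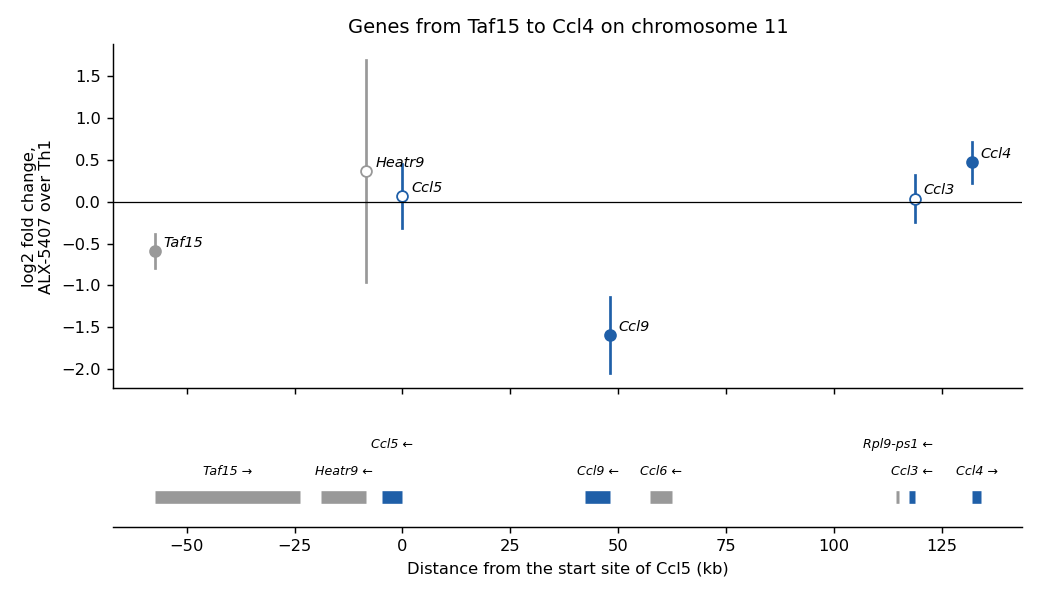
Upper panel, log2 fold change with 95% interval (vertical axis) of the tested genes against the distance of their start site from that of Ccl5 in kb, and lower panel, the spans and directions of transcription of the genes. Members are blue and open points did not pass the edgeR test. Ccl9 at -1.59 lies below its neighbours in the cluster, and Ccl4 at 0.47 lies above them.

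The 250 bases before the RefSeq start site (GRCm38.p6) were found for 6 of the 8 genes. They were searched on both strands for short consensus letters of factors that act on chemokine genes. Only the letters named below were searched, and sites of the same factors in other letters were not. The windows of Ccl20, which rose, of Ccl9 and Xcl1, which fell, and of Cxcl10, which did not pass the test, are shown 5′ to 3′ in the direction of transcription so that genes that moved apart can be compared, with matches in capitals.
Ccl20 (chr1:83116516-83116765, plus strand): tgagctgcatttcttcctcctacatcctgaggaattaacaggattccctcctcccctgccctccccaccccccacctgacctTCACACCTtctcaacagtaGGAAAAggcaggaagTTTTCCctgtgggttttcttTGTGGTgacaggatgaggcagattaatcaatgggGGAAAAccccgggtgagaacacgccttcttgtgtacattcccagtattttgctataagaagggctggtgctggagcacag
Cxcl10 (chr5:92348890-92349139, minus strand): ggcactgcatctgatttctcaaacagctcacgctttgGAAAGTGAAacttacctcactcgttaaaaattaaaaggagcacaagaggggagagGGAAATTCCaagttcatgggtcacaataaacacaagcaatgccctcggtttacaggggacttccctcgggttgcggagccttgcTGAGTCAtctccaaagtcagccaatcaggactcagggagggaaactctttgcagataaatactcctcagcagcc
Ccl9 (chr11:83578637-83578886, minus strand): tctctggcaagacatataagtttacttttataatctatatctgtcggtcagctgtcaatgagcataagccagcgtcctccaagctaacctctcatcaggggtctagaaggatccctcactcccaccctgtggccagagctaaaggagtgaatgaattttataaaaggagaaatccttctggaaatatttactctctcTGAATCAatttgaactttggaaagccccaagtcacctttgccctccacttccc
Xcl1 (chr1:164935523-164935772, minus strand): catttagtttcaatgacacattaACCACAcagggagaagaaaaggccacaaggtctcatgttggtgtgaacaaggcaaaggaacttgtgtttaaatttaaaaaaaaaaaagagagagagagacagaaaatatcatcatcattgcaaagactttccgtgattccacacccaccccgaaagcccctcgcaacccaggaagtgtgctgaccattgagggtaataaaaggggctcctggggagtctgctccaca
The Ccl20 window held the T-box letters TCACACCT, 3 matches to the NFAT letters GGAAAA and 1 to the RUNX letters TGTGGT. The Cxcl10 window held the ISRE letters GAAANNGAA, the NF-kB letters GGANTTTCC on the minus strand and the AP-1 letters TGANTCA. The Ccl9 window held 1 AP-1 match and the Xcl1 window 1 RUNX match on the minus strand. Of the windows not shown, Ccl3 held RUNX, NFAT and ISRE matches, and Ccl1 held ISRE and NFAT matches, 1 pair of which overlapped.

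Over all 32851 windows of this length, a match was present in 1.07% for NF-kB, 1.12% for T-box, 6.75% for AP-1, 7.13% for ISRE, 14% for RUNX and 20.4% for NFAT. The CRE letters TGACGTCA (1.55% of windows) and the ATF4-C/EBP letters TGATGNAA (3.45%) matched none of the 6 member windows. These matches describe the letters of the windows and mark no measured binding. A window without a match can still hold a site of that factor in other letters, so the windows cannot be contrasted by missing matches.

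Receptors of the ligands were measured in the same cultures. Of 6 receptor genes examined 5 were tested, of which 2 fell and 3 did not pass the test, with a median log2 fold change of -0.33 against 0.01 over all genes. By the same test 23.2% of all genes tested were lower. Ccr6, the receptor of CCL20, moved against its ligand. It had 125, 97 and 98 counts in vehicle and 8, 10 and 19 in ALX-5407 libraries, without overlap. The log2 fold change was -3.28 ± 0.330 (SE; edgeR adjusted p = 6.92e-07), while that of Ccl20 was 1.73. Ccr8, the receptor of CCL1, fell from 14.1 ± 2.03 to 6.17 ± 0.237 CPM (log2 fold change -1.19, edgeR adjusted p = 2.49e-06), and its ligand was too low for the test.

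Cxcr3, the CXCL10 receptor, was higher in each ALX-5407 library than in each vehicle library, at 9.78 ± 1.04 against 8.24 ± 0.305 CPM (SD, n = 3), yet did not pass the edgeR test (log2 fold change 0.25, adjusted p = 0.131). Ccr1 (log2 fold change -0.33) and Ccr3 (-0.05) overlapped between groups and did not pass it either. Xcr1, the receptor of XCL1 and a marker of cross-presenting dendritic cells, had 2 to 4 counts in each library and was not tested.

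**Figure D4:**
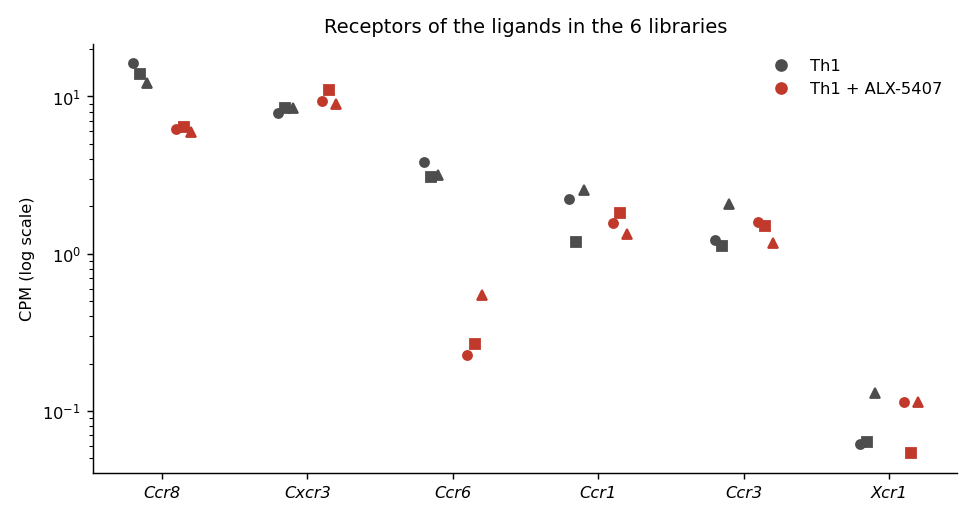
CPM (log axis) of 6 receptor genes of the ligands in the vehicle Th1 (grey) and ALX-5407 (red) libraries, with circles, squares and triangles for replicates 1, 2 and 3. The groups are apart for Ccr8, Cxcr3 and Ccr6 and overlap for Ccr1, Ccr3 and Xcr1.

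Genes of the pathways that feed the ligands were taken from lists of known regulators, and their calls are from the same edgeR test. As background for this list and those that follow, 24.5% of all genes tested were higher and 23.2% were lower, with a median of 0.01. Of 32 regulators of T cell chemokine genes, all tested, 14 were higher and 9 were lower, with a median log2 fold change of 0.15. The 6 called genes with the smallest p were Prdm1 (2.24), the repressor Blimp-1, Nfatc1 (0.96), a calcium-driven activator, Stat4 (-1.16), the IL-12 signal transducer, Klf13 (0.75), known as a regulator of Ccl5, Fosl2 (-0.85), an AP-1 subunit, and Klf2 (1.39), a quiescence factor.

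Among 28 interferon-gamma induced genes 25 were tested, 19 were higher and 1, Nos2, was lower (log2 fold change -0.89), with a median of 0.40 against 0.01 over all genes. Gbp7 (1.87), Gbp4 (1.14), Iigp1 (1.47), Gbp6 (1.27), Igtp (0.88) and Tgtp1 (1.24), GTPases of cell-autonomous defence, had the smallest p among those called. Near-identical copies in these GTPase families make single values uncertain where the counting split shared reads. Ifng itself fell from 660 ± 106 to 383 ± 18.1 CPM (SD, n = 3; log2 fold change -0.79), while Cxcl10, another interferon-gamma induced gene, gave the interval from -0.60 to 1.01 stated above.

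Of 10 cytokine and effector genes released along with chemokines, all tested, 5 were higher and 3 were lower, with a median log2 fold change of 0.11. Il3 (-3.54), a myeloid growth factor, Fasl (-1.56), a death ligand, and Ifng fell, and Prf1 (0.84) and Gzmb (0.61), of the cytotoxic granule, and Tnf (0.61) rose. Of 12 T helper lineage genes 11 were tested, 2 were higher and 5 were lower, with a median of -0.55. Il17a (-3.49), Il13 (-1.42), Ifng and Stat4 fell, Foxp3 (0.73), the regulatory T cell factor, rose, and Tbx21, which encodes T-bet, rose by a log2 fold change of 0.34.

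The libraries held 30801753 to 36727788 counts each. The 12 T cell markers summed to 4043 to 4285 CPM in vehicle and 3798 to 3882 CPM in ALX-5407 libraries, with 2 higher and 6 lower, so defining T cell transcripts were abundant in both groups. The called T cell markers with the smallest p were Cd2 (log2 fold change -0.68), Cd28 (0.52), Cd4 (-0.46), Cd3g (-0.35), Cd3d (-0.39) and Cd5 (0.24). B cell markers summed to 63.2 to 69.7 CPM in vehicle and 77.6 to 80.2 CPM in ALX-5407 libraries, mostly from Ighm. Ighm did not pass the test (log2 fold change 0.18, edgeR adjusted p = 0.0581). Among the 7 markers 4 were higher, the direction of Ccl4 and Ccl20. These were Pax5 (log2 fold change 0.90), Cd22 (0.78), Ms4a1 (1.27) and Cd79a (0.67), with group means of at most 4.02 CPM. Of 6 neutrophil markers S100a8, S100a9, Csf3r and Retnlg had no count, and the list's sum, nearly all from Ly6g, of 69.9 to 75.3 CPM against 24.1 to 31.6 CPM moved in the direction of Ccl9 and Xcl1. Dendritic cell markers summed to 4.05 to 4.87 CPM in vehicle and 3.05 to 3.73 CPM in ALX-5407 libraries, with Cd209a and Siglech at 0, and basophil and mast cell markers stayed at or below 1.33 CPM. The part of such cells in the ligand values was not tested.

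The fold changes were recomputed with each library left out in turn and with other scalings, filters and models. Ccl4 and Ccl20 stayed higher, and Ccl9 and Xcl1 stayed lower, under each setting in which they were tested.

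**Figure D5:**
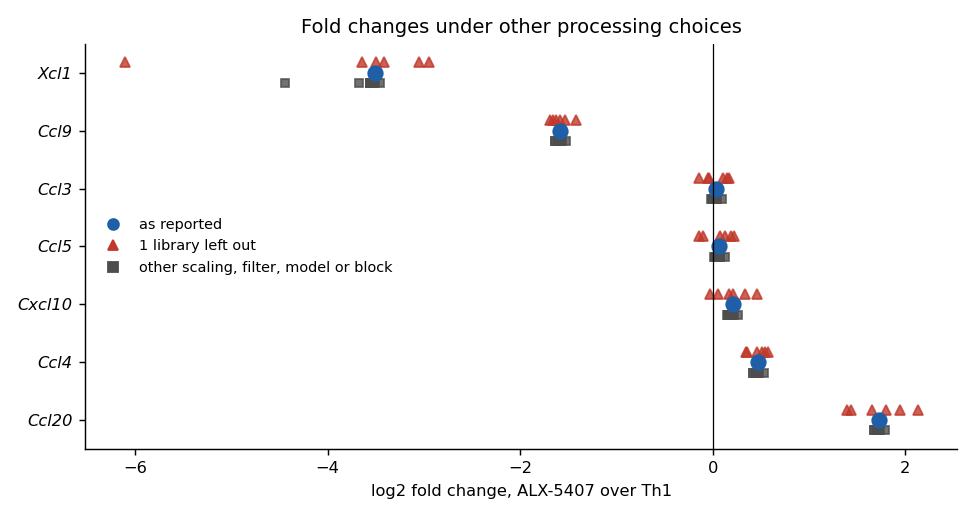
Log2 fold change (ALX-5407 over vehicle Th1, horizontal axis) of the 7 tested ligand genes as reported (blue circles), with 1 library left out (red triangles) and under other scaling, filters, models or a replicate block (grey squares). The points of Ccl3, Ccl5 and Cxcl10 lie on both sides of 0, and those of Ccl4, Ccl20, Ccl9 and Xcl1 keep to 1 side.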

How the data were processed

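Poly(A)-enriched libraries were described in the labels, whereas the study's methods describe depletion of ribosomal RNA. The deposited values were whole-number counts per gene made by the authors, and the submitters' processing notes name fastp, HISAT2 2.0.5, featureCounts 1.5.0-p3 and mm10. The annotation release, strand setting and treatment of multi-mapping reads were not given in the sources used here. Gene lengths were used as deposited by the authors, and all 8 gene spans equalled those of GENCODE M21.

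Groups came from sample titles. Genes passing filterByExpr (minimum count 10, total 15) were fitted with TMM scaling and edgeR 4.0.16 quasi-likelihood tests (R 4.3.3) over all 6 libraries, with no covariate. CPM used TMM-scaled totals. Called genes had an adjusted p under 0.05. Alternatives included DESeq2 1.42.0 and limma 3.58.1 (voom). Single values per library were compared by two-sided exact permutation tests, which cannot go below 0.1 with 3 libraries a group. In data simulated for this comparison, 185 of 196 changed genes were called among 15969 tested. The planted log2 changes had a size of 1 or more, in genes with a mean count of 10 or more. All genes were given the same spread. Smaller changes, such as that of Ccl4, and noisier genes were not simulated. Libraries within each group varied beyond counting noise, and counting intervals and the limit of 3 counts for a 0 cover counting error only.

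The 8 genes and all lists were chosen with earlier results of these data known. All 8 genes were named, together with every other tested ligand and genes beside the chromosome 11 cluster. From each other list, up to 6 called genes with the smallest p were named. Genes named beyond this were chosen after their values were seen. They were Nos2, Cxcl9, Cxcl11, receptors that did not pass the test, Gm20743 and Art3. They also included the markers Csf1r, Klrb1c, Ncr1, Klra8, Cd8b1, Ighm, C1qa, C1qb, C1qc, S100a8, S100a9, Csf3r, Retnlg, Cd209a and Siglech. Promoter windows were from RefSeq (GRCm38.p6) and coding stretches from GENCODE M21. Some list genes and 1 coding stretch are not reported here.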

Additional observations from a re-analysis of the deposited data

How the results depend on the processing

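Of 102 fold changes of the 7 tested members recomputed under other settings, 94 kept their direction and their side of the threshold and 8 turned sign. All 8 belonged to genes that did not pass the test. Ccl3 was -0.016 with upper-quartile scaling and -0.01 with protein-coding genes alone. With each library left out in turn, it ranged from -0.141 to 0.167, Ccl5 from -0.14 to 0.221 and Cxcl10 from -0.033 to 0.464. The called genes ranged from 0.344 to 0.569 (Ccl4), 1.398 to 2.13 (Ccl20), -1.694 to -1.425 (Ccl9) and -6.104 to -2.947 (Xcl1). A filter of 1 CPM in 3 libraries kept 4 of the 8 genes, by its construction, and left 1 member lower and 1 higher. Requiring an absolute log2 fold change over 1 left 1 member higher. Without a filter, Ccl1 joined the lower genes, making 3.

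Same-numbered replicates correlated by 0.0089, 0.018 and 0.104 in their deviations from the group means, so the numbers were not taken to pair the cultures. With the replicate number as a block, the log2 fold changes were 0.469 for Ccl4, 1.706 for Ccl20, -1.574 for Ccl9 and -3.679 for Xcl1, and no call of a member changed. With the block 3833 genes were lower and 4071 higher, against 3695 and 3910 without it. Not every library correlated best with its own number.

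Depth limited Ccl1, Xcl1, Ccl20 and Cxcl10, each of which had fewer than 60 counts in every library.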
